A study of Mus musculus with 6 samples.

Results

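The Clec genes of the mouse encode proteins with a C-type lectin-like domain, and 34 of the 55291 genes in the table carried a symbol of the form Clec, a number and a letter. Their RNA was read in 6 bulk libraries of polyadenylated RNA, 1 for each liver tumour. In the 3 MKO_PD1 tumours the host mice lacked Trem2 in myeloid cells, Trem2 being a macrophage receptor for lipids, and in the 3 Cre_PD1 tumours the hosts were LysM-Cre mice, in which Cre recombinase acts in myeloid cells. Every tumour was RIL-175/PD-1R, from the mouse liver cancer line RIL-175, and every mouse was treated with anti-PD-1, which blocks a receptor that restrains T cells. The meaning of PD-1R, the driver that removed Trem2, the age of the mice and any batch of the libraries are not given in the labels. No tumour without anti-PD-1 was analysed here, and each library is taken as 1 mouse from the counts in the study's design.

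C-type lectins bind sugars, lipids or proteins through a shared fold, in some members with the help of calcium. Myeloid members signal through the kinase Syk, either by a tyrosine motif of their own or by the adaptors Fcer1g and Tyrobp, or they recruit phosphatases and restrain the cell. In liver, single members mark resident Kupffer cells and the endothelium of the sinusoids, and others mark dendritic cells, platelets, neutrophils and monocyte-derived macrophages.

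The libraries differed in tissue content before any lectin was considered. Summed levels of 15 hepatocyte genes took 13.9, 3.47 and 9.67% of TPM (transcript abundance per length, each library rescaled to a total of 1000000) in MKO_PD1 replicates 1, 2 and 3, against 1.33, 2.69 and 2.71% in Cre_PD1. MKO_PD1 replicate 2 stood apart from the other MKO_PD1 libraries, with the lowest hepatocyte share of its group and the highest summed level of pan-macrophage genes (4111, 9734 and 4804 TPM in MKO_PD1, 3634, 4801 and 4624 TPM in Cre_PD1). Tumour epithelium genes, 7 in all, summed to 2473, 9848 and 6652 TPM in MKO_PD1 and to 24730, 18240 and 18130 TPM in Cre_PD1. Trem2 itself was at 7.68, 18.0 and 6.81 TPM in MKO_PD1 and at 10.5, 16.5 and 14.9 TPM in Cre_PD1, with a log2 difference of -0.44 (SE 0.40, limma adjusted p = 0.432). The groups overlapped for the targeted gene. Which exons were deleted is not stated, and reads over the whole gene need not measure the deletion. Recovered reads per library ranged from 26750054 to 34268075. In bulk RNA, fewer cells of a type and less RNA per cell cannot be told apart.

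Lectin RNA was more abundant in MKO_PD1 tumours as a sum. The 34 genes together reached 1022, 1028 and 892 TPM in MKO_PD1, against 353, 578 and 507 TPM in Cre_PD1, so that the lowest MKO_PD1 library lay above the highest Cre_PD1 library. The makeup of that sum differed between MKO_PD1 tumours of nearly equal total. Kupffer cell and sinusoidal lectins made up 48.5, 8.13 and 36.5% of it in MKO_PD1 and 12.7, 23.4 and 24.0% in Cre_PD1. Activating receptors of recruited macrophages and neutrophils made up 18.3, 52.9 and 28.6% in MKO_PD1 and 38.5, 39.2 and 38.4% in Cre_PD1. The 3 Cre_PD1 tumours were nearly alike in the share of activating receptors, while MKO_PD1 replicates 1 and 3 lay below them and replicate 2 above.

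**Figure D1:**
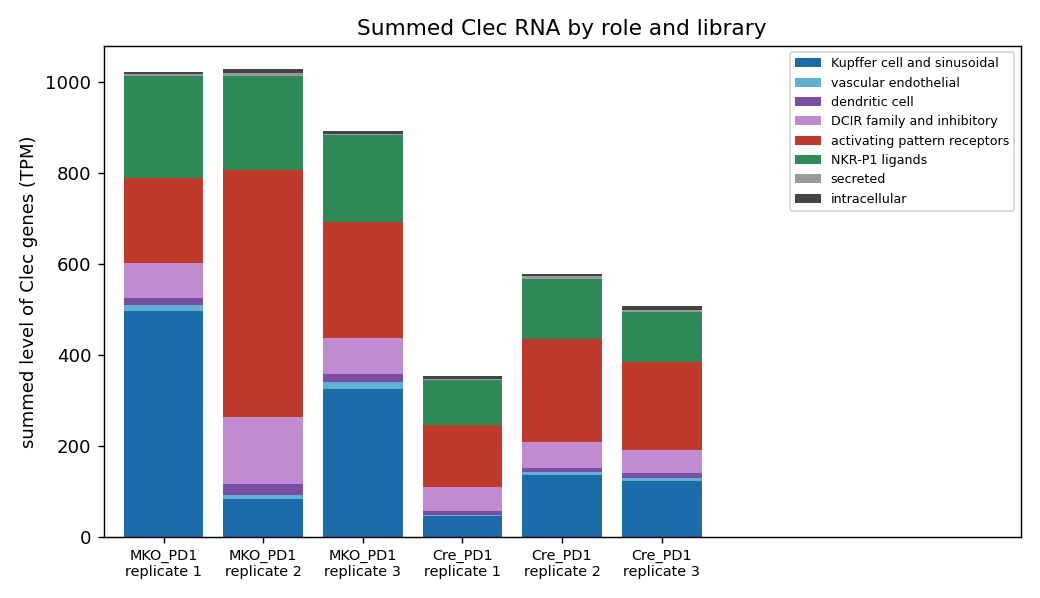
Summed level of the Clec genes in TPM (vertical axis) in each library, stacked by role. The 3 MKO_PD1 bars reach 892 to 1028 TPM and the 3 Cre_PD1 bars 353 to 578 TPM, and MKO_PD1 replicate 2 is made up mainly of activating receptors where replicates 1 and 3 hold more Kupffer cell and sinusoidal lectins.

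Of the 34 genes, 22 had at least 1 TPM in at least 3 libraries and were tested in a fit over 16506 genes. None passed the threshold of 0.05 on the adjusted p of limma, where 0.0121% of all genes passed (0.00606% as higher), and none passed with limma voom on recovered reads, where 0% of all genes did. At an unadjusted p under 0.05 there were 10 of 22, all higher in MKO_PD1, where 8.47% of all genes were higher at that p and 27.9% reached it in either direction. For 11 of 22 the groups did not overlap and MKO_PD1 was higher, against 10.1% of all genes. None was separate in the other direction, against 28.9% of all genes. The median log2 difference, MKO_PD1 minus Cre_PD1, was 0.86 for the 22 genes and -0.42 for all genes, and each of the 22 lay above the all-gene median. Clec4b1 and Clec2h passed the filter mainly through MKO_PD1. With a filter of 5 TPM, which leaves both out, 7 of 17 were separate and higher, against 9.69% of all genes, and 1 of the 7, Clec9a, reached 5 TPM in MKO_PD1 libraries alone. With median-of-ratios scaling, which moved the median of all genes from -0.42 to -0.02, 15 of 22 were separate and higher, against 18.6% of all genes.

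**Figure D2:**
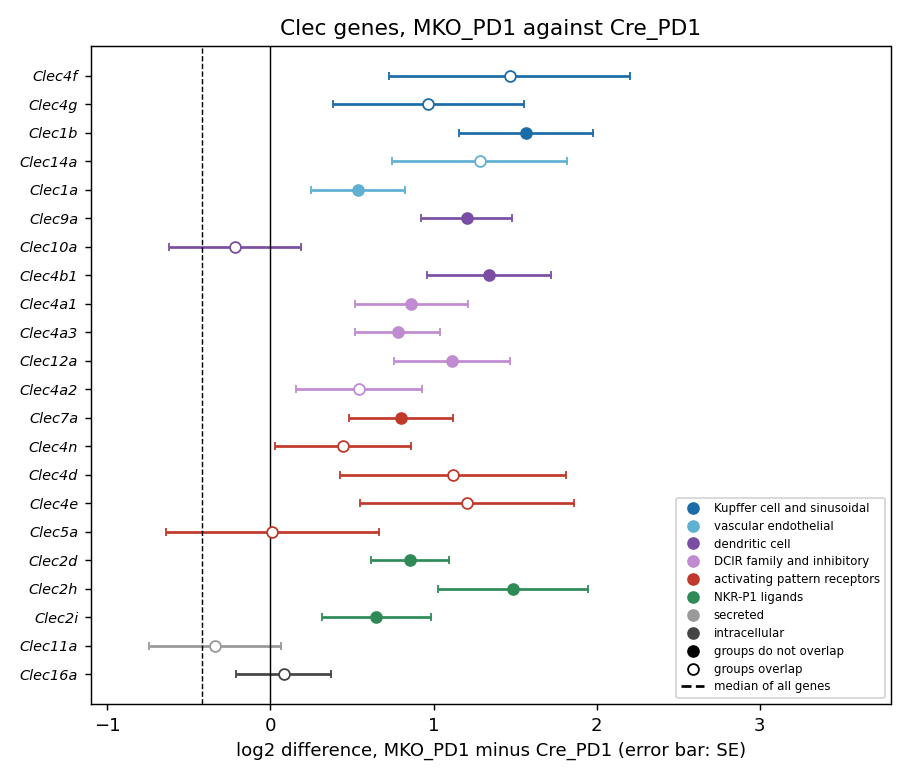
Log2 difference, MKO_PD1 minus Cre_PD1, of the 22 tested Clec genes (horizontal axis), with its standard error as bar and genes listed by role. Filled points mark the 11 genes whose groups do not overlap, and the dashed line is the median of all genes at -0.42, to the left of every point.

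Calls appeared when 1 library was left out. Without MKO_PD1 replicate 2, 8 of 22 lectin genes passed, all higher in MKO_PD1, against 7.88% of all genes passing as higher and 38% as lower. The 8 were Clec4f, Clec4g, Clec1b, Clec14a, Clec9a, Clec4b1, Clec2d and Clec2h. Leaving out each of the other 5 libraries in turn called none of the 22 genes in limma.

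Kupffer cell and sinusoidal lectins differed widely among MKO_PD1 tumours. Clec4f (ENSMUSG00000014542.3, mm10 chromosome 6, 83644542 to 83656187, minus strand) encodes a galactose-binding receptor by which mouse Kupffer cells are recognised. It was at 394, 58.6 and 251 TPM in MKO_PD1 and at 29.1, 99.5 and 92.3 TPM in Cre_PD1. MKO_PD1 replicates 1 and 3 were above every Cre_PD1 library and replicate 2 was among them, so the groups overlapped (log2 difference 1.47, SE 0.74, limma adjusted p = 0.209). Clec4g (ENSMUSG00000074491.9, chromosome 8, 3707064 to 3720651, minus strand), the sinusoidal endothelial lectin LSECtin, followed the same order of libraries within MKO_PD1. Its levels were 78.1, 16.1 and 56.3 TPM in MKO_PD1 and 12.2, 29.0 and 25.2 TPM in Cre_PD1 (log2 difference 0.97, SE 0.59, limma adjusted p = 0.268). Without MKO_PD1 replicate 2 the log2 differences were 2.27 for Clec4f and 1.63 for Clec4g. Without MKO_PD1 replicates 1 and 3 they were -0.14 and -0.35, so direction as well as call depended on which MKO_PD1 tumours entered.

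Clec1b (ENSMUSG00000030159.15, chromosome 6, 129397297 to 129409335, plus strand) encodes CLEC-2, the podoplanin receptor of platelets, which mouse Kupffer cells also carry. It was at 22.8, 8.75 and 18.2 TPM in MKO_PD1 and at 3.45, 6.54 and 4.09 TPM in Cre_PD1. All MKO_PD1 libraries were above all Cre_PD1 libraries, at a log2 difference of 1.57 (SE 0.41, limma adjusted p = 0.168). Pf4, the most abundant of 12 platelet and megakaryocyte markers, was at 62.5, 487 and 172 TPM in MKO_PD1 and 68.2, 149 and 76.1 TPM in Cre_PD1, highest in the MKO_PD1 library where Clec1b was lowest. The 12 markers, 9 tested and 1 at 0 in every library, summed to 109, 596 and 246 TPM in MKO_PD1 and 117, 203 and 140 TPM in Cre_PD1. Of the 9 tested, 5 (Treml1, Ppbp, Tubb1, Gp9 and Gp5) were separate and higher in MKO_PD1, against 10.1% of all genes, as was Clec1b. Tubb1 and Gp5 were under 1 TPM in every Cre_PD1 library and passed the filter through MKO_PD1 alone, which favours such a separation. Separate and lower were 0, against 28.9% of all genes. Itgb3 and Gp1ba went the other way, at log2 differences of -0.845 and -0.453, with overlap. The median log2 difference of the 9 was 0.92, against -0.42 over all genes. The part of platelets in the Clec1b level was not tested. Pdpn, the gene of podoplanin, was at 4.83, 38.7 and 11.8 TPM in MKO_PD1 and 8.39, 15.2 and 8.92 TPM in Cre_PD1 (log2 difference 0.33, limma adjusted p = 0.723). The groups overlapped for this ligand.

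The Kupffer cell markers moved across libraries with Clec4f. All 10 of 10 marker genes were tested, none was at 0, and their summed level was 2248, 516 and 1485 TPM in MKO_PD1 and 254, 549 and 531 TPM in Cre_PD1. Against the mean log2 level of those markers, Clec4f stood at 1.97, 1.18 and 1.76 in MKO_PD1 and at 1.14, 1.87 and 1.85 in Cre_PD1. The difference was 0.01 (exact two-sided permutation p = 0.9), and -0.065 with a pseudocount of 0.1 in place of 1. For Clec1b against the same markers the difference was 0.11 (exact two-sided permutation p = 0.8). Relative to 9 sinusoidal endothelial markers, whose summed level was 246, 305 and 271 TPM in MKO_PD1 and 151, 176 and 182 TPM in Cre_PD1, Clec4g differed by 0.28 (exact two-sided permutation p = 0.7). Clec4g stood at 1.60, -0.38 and 1.03 in MKO_PD1 and at -0.06, 0.88 and 0.60 in Cre_PD1. Its ratio to the marker mean was not fixed within either group, but the markers themselves were split within MKO_PD1. Fcgr2b (47.7, 139 and 68.1 TPM) and Stab1 (27.3, 65.7 and 36.6 TPM) were highest in MKO_PD1 replicate 2. Stab2 (30.4, 12.4 and 30.9 TPM), Oit3, Gpr182, Dnase1l3, Bmp2 and Flt4 were lowest there within MKO_PD1, as was Clec4g. Lyve1 lay between the other MKO_PD1 libraries in replicate 2.

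The start regions of 5 lectins are given to set side by side genes with different patterns over the MKO_PD1 tumours. Clec4f and Clec1b were highest in replicate 1, Clec9a was nearly even, and Clec4d and Clec4e were highest in replicate 2. The windows run from 250 bases before to 50 bases after the start in RefSeq on GRCm38.p6, and capitals mark the motif matches named below. In order they are chr6:83656067-83656366 (minus strand), chr6:129397047-129397346 (plus), chr6:129408612-129408911 (plus), chr6:123261857-123262156 (plus) and chr6:123289822-123290121 (minus).
Clec4f: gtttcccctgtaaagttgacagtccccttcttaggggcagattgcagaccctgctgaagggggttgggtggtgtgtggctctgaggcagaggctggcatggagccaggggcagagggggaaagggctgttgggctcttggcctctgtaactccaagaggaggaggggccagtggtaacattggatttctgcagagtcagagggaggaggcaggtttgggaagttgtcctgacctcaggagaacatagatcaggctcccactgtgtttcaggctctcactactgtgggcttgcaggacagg
Clec1b: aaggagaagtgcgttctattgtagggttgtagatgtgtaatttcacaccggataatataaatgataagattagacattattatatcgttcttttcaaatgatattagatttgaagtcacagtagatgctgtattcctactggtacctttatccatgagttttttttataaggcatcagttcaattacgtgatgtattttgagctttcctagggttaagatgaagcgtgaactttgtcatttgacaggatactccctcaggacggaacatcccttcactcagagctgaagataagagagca
Clec9a: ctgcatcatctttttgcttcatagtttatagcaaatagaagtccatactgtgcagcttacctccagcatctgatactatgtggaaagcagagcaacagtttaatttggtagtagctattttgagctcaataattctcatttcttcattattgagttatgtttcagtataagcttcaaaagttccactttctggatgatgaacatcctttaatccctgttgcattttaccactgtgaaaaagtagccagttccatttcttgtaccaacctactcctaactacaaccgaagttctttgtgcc
Clec4d: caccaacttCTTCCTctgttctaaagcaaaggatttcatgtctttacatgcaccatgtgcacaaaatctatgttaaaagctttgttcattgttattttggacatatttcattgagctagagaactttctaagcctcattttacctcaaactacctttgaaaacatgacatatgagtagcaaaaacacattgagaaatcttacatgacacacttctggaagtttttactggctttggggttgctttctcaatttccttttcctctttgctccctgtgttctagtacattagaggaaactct
Clec4e: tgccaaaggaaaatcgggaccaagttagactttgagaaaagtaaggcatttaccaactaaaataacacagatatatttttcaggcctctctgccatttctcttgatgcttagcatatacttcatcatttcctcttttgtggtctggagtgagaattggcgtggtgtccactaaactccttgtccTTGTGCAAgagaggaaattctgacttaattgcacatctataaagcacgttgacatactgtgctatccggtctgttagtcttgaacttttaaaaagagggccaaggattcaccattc

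A search on both strands used AGGAAG (the core bound by PU.1 and other ETS factors), TTGCNNAA (C/EBP type), TGANTCA (AP-1 type) and TGCTGAC (MAF type). The Clec4d window held AGGAAG, on the opposite strand as CTTCCT, and the Clec4e window TTGCNNAA, on the opposite strand as TTGTGCAA. The Clec4f, Clec1b and Clec9a windows held none of these letters. RefSeq windows were matched for 26 of the 34 genes. AGGAAG was in 12 of those 26 (46.2%) and in 35.1% of 27025 promoters, TTGCNNAA in 5 (19.2%) and 10.8%, and TGANTCA in 6 (23.1%) and 7.93%. TGCTGAC was in 2 (7.69%) and 4.58%. These matches describe letters in a window and were not tested further. An IRF-type and an NF-kB-type motif were also searched at first and are left out here. The Clec9a window lies wholly within the annotated span of Clec1b.

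The endothelial lectins were low. Clec14a (ENSMUSG00000045930.3, chromosome 12, 58264720 to 58269290, minus strand), a surface protein of vessels that binds multimerin 2, was at 12.2, 4.79 and 12.0 TPM in MKO_PD1 and at 0.968, 4.83 and 5.04 TPM in Cre_PD1. MKO_PD1 replicate 2 lay among the Cre_PD1 libraries and Cre_PD1 replicate 1 lay far below the rest (log2 difference 1.28, SE 0.54, limma adjusted p = 0.174). Clec1a, a receptor of endothelial cells that binds fungal melanin, was at 1.91, 2.57 and 3.12 TPM in MKO_PD1 and at 1.20, 1.86 and 1.23 TPM in Cre_PD1 (log2 difference 0.54, SE 0.29, limma adjusted p = 0.225). The groups were separate by a small margin. The 10 general endothelial markers summed to 188, 233 and 196 TPM in MKO_PD1 and 135, 167 and 127 TPM in Cre_PD1. Against their mean, Clec1a differed by 0.06 (exact two-sided permutation p = 1.0) and Clec14a by 0.81 (exact two-sided permutation p = 0.3). Mmrn2, the gene of multimerin 2, was at 10.5, 15.8 and 13.2 TPM in MKO_PD1 and 7.50, 8.30 and 8.36 TPM in Cre_PD1 (limma adjusted p = 0.180), also separate.

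Among dendritic cell lectins, Clec9a had the smallest unadjusted p of all Clec genes (0.00247). Clec9a (ENSMUSG00000046080.17, chromosome 6, 129408862 to 129424763, plus strand) encodes DNGR-1, by which type 1 conventional dendritic cells (cDC1) sense actin exposed by dead cells. It was at 7.13, 9.18 and 8.44 TPM in MKO_PD1 and at 2.72, 2.83 and 3.50 TPM in Cre_PD1, from 308, 302 and 294 reads against 91, 112 and 101. Both groups were tight and wholly separate, with a log2 difference of 1.20 (SE 0.28, limma adjusted p = 0.168). The 9 cDC1 markers did not follow as a set, with a median log2 difference of -0.034 over the 8 tested. Their summed level was 65.5, 183 and 88.4 TPM in MKO_PD1 and 94.0, 87.3 and 103 TPM in Cre_PD1, and none was at 0 in every library. Irf8 and Naaa, at 61.4 and 61.9 TPM, led that sum in MKO_PD1 replicate 2. Xcr1, the defining chemokine receptor of these cells, was low and not tested, at 0.839, 2.54 and 0.956 TPM in MKO_PD1 and 0.928, 0.916 and 1.23 TPM in Cre_PD1. Batf3 was the only one of the 8 tested whose groups were separate, at 14.0, 10.7 and 13.1 TPM in MKO_PD1 and 8.99, 9.39 and 7.29 TPM in Cre_PD1. Against the mean of the 9 markers Clec9a stood at 0.46, -0.27 and 0.31 in MKO_PD1 and at -1.16, -0.93 and -0.96 in Cre_PD1. This difference of 1.18 separated the groups (exact two-sided permutation p = 0.1, the smallest that 3 against 3 libraries allow).

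Clec9a shares 474 annotated bases with the 3' end of Clec1b (chromosome 6, 129408862 to 129409335, same strand), and how reads in that stretch were assigned is not given in the sources used here. Clec1b had 1525, 446 and 981 reads in MKO_PD1 and 179, 401 and 183 in Cre_PD1. Clec9a reads were nearly equal across MKO_PD1 libraries where Clec1b reads were not.

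The other dendritic cell lectins went different ways. Clec4b1, a receptor gene of the DCAR type, was at 5.64, 4.21 and 2.89 TPM in MKO_PD1 and at 0.502, 0.743 and 2.18 TPM in Cre_PD1. It rested on 58, 33 and 24 reads against 4, 7 and 15, and the groups were separate (log2 difference 1.34, SE 0.38, limma adjusted p = 0.168). Clec10a, the macrophage galactose lectin MGL1, was at 2.84, 9.56 and 4.14 TPM in MKO_PD1 and at 6.41, 5.52 and 5.75 TPM in Cre_PD1 (log2 difference -0.21, SE 0.41, limma adjusted p = 0.709). Its MKO_PD1 libraries lay on both sides of a narrow Cre_PD1 range, and its sign turned with median-of-ratios scaling (0.17). Against the pan-macrophage mean Clec10a was lower in every MKO_PD1 library, at -5.27, -4.91 and -5.08, than in any Cre_PD1 library, at -4.08, -4.56 and -4.48 (difference -0.71, exact two-sided permutation p = 0.1). Its close paralog Mgl2 was at 1.28, 16.4 and 4.29 TPM in MKO_PD1 and 12.7, 12.0 and 22.2 TPM in Cre_PD1 (log2 difference -1.44, limma adjusted p = 0.195), and these groups overlapped.

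**Figure D3:**
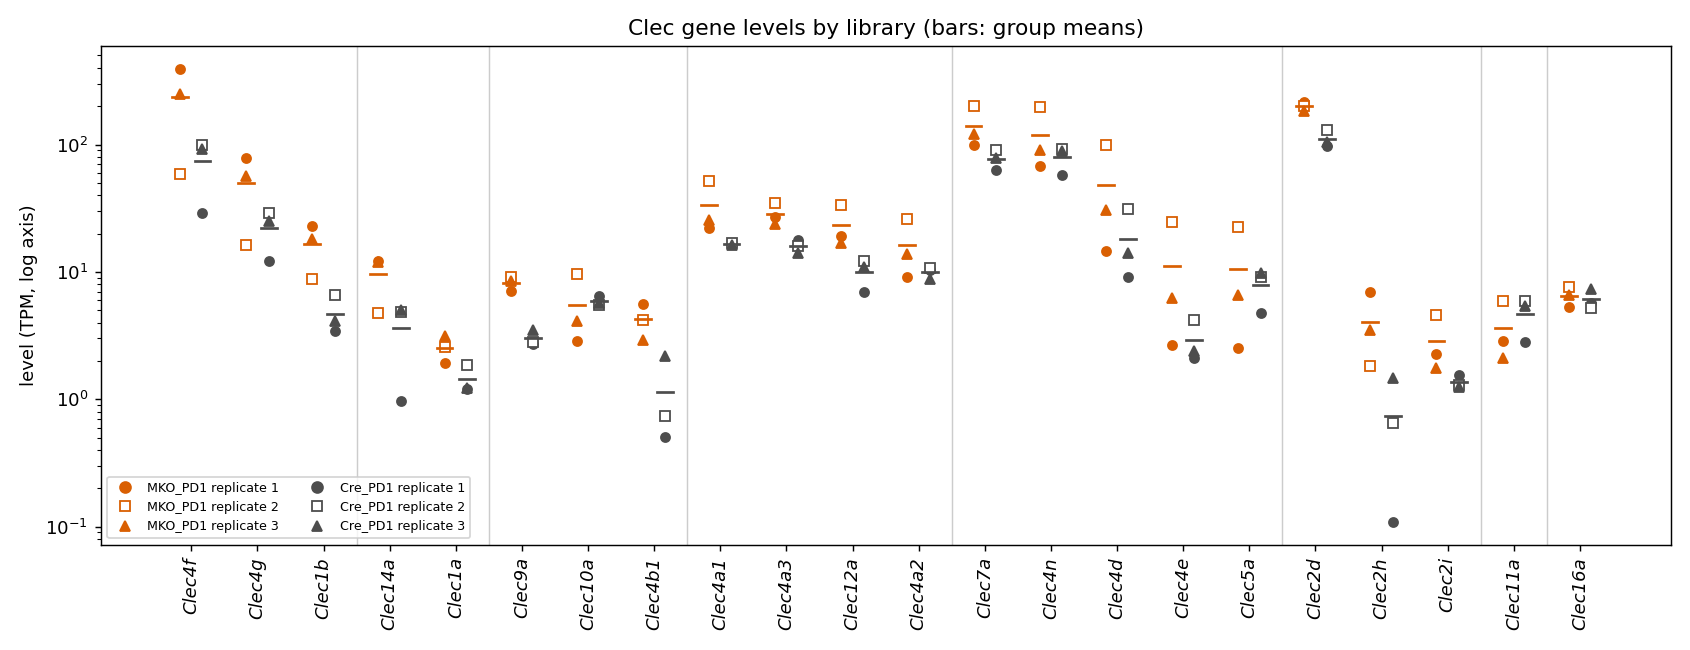
Level of each tested Clec gene in TPM on a log axis, by library, with genes grouped by role between vertical lines and bars at the group means. Clec9a and Clec2d form tight separate groups, while Clec4f and Clec4g of MKO_PD1 replicate 2 lie among the Cre_PD1 libraries, and Clec4d and Clec4e are highest in that replicate.

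The lectins of the DCIR cluster and the inhibitory Clec12a were higher in MKO_PD1 in 3 of 4 tested genes with no overlap, against 10.1% of all genes. Clec4a1 was at 22.1, 51.9 and 25.7 TPM in MKO_PD1 and at 16.7, 16.9 and 16.1 TPM in Cre_PD1 (log2 difference 0.86, SE 0.35, limma adjusted p = 0.169). Clec4a3 was at 26.8, 34.6 and 23.9 TPM in MKO_PD1 and at 17.9, 15.9 and 14.2 TPM in Cre_PD1 (log2 difference 0.78, SE 0.26, limma adjusted p = 0.168). Both had a narrow Cre_PD1 range and their highest level in MKO_PD1 replicate 2. Clec4a2, which encodes DCIR with its inhibitory motif, overlapped, at 9.17, 26.0 and 13.7 TPM in MKO_PD1 and 10.3, 10.8 and 8.77 TPM in Cre_PD1 (log2 difference 0.54, SE 0.38, limma adjusted p = 0.328). Clec12a (ENSMUSG00000053063.11, chromosome 6, 129342691 to 129365303, plus strand), an inhibitory receptor that senses uric acid crystals, was at 19.1, 33.8 and 17.0 TPM in MKO_PD1 and at 6.96, 12.1 and 11.0 TPM in Cre_PD1. Its groups were separate (log2 difference 1.11, SE 0.35, limma adjusted p = 0.168).

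Relative to 14 pan-macrophage markers, Clec12a differed by 0.62 and Clec4a1 by 0.37, each separate with an exact two-sided permutation p = 0.1. Clec4a3 differed by 0.28 (exact two-sided permutation p = 0.4) and Clec4a2 by 0.05 (exact two-sided permutation p = 0.9). Of 3 phosphatases of inhibitory lectins, limma called 0, with 0 at an unadjusted p under 0.05, against 27.9% of all genes. The median log2 difference was 0.35, against -0.42 over all genes. Ptpn11 had the smallest p and went the other way (log2 difference -0.64, limma adjusted p = 0.233). Inpp5d was at 0.35 (limma adjusted p = 0.538), and the groups overlapped for both. Ptpn6, the gene of the phosphatase SHP-1 that inhibitory lectins recruit, was at 56.5, 111 and 58.5 TPM in MKO_PD1 and 39.8, 49.5 and 55.5 TPM in Cre_PD1 (limma adjusted p = 0.242), separate by a small margin.

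The activating pattern receptors were highest in MKO_PD1 replicate 2 in all 5 cases. Clec4d (ENSMUSG00000030144.4, chromosome 6, 123262111 to 123275265, plus strand), the partner of Mincle named MCL, was at 14.6, 100 and 30.5 TPM in MKO_PD1 and at 9.10, 30.9 and 14.1 TPM in Cre_PD1. Clec4e (ENSMUSG00000030142.10, chromosome 6, 123281789 to 123289870, minus strand), which encodes Mincle, a receptor of mycobacterial glycolipid, was at 2.66, 24.5 and 6.19 TPM in MKO_PD1 and at 2.12, 4.18 and 2.39 TPM in Cre_PD1. Both overlapped (Clec4d log2 difference 1.12, SE 0.69, limma adjusted p = 0.276; Clec4e 1.21, SE 0.66, limma adjusted p = 0.231). Clec5a, the receptor MDL-1 that signals through Tyrobp, was at 2.54, 22.7 and 6.57 TPM in MKO_PD1 and at 4.71, 9.09 and 9.78 TPM in Cre_PD1. Its MKO_PD1 range enclosed the whole Cre_PD1 range (log2 difference 0.01, SE 0.65, limma adjusted p = 0.991).

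The antifungal receptors were more abundant. Clec4n, which encodes the mannan receptor Dectin-2, was at 67.9, 198 and 90.5 TPM in MKO_PD1 and at 57.6, 92.7 and 89.3 TPM in Cre_PD1 (log2 difference 0.45, SE 0.42, limma adjusted p = 0.446). Clec7a (ENSMUSG00000079293.11, chromosome 6, 129461591 to 129472779, minus strand), the beta-glucan receptor Dectin-1, was at 98.8, 199 and 121 TPM in MKO_PD1 and at 62.6, 89.8 and 78.9 TPM in Cre_PD1. It was the only activating receptor with separate groups (log2 difference 0.80, SE 0.32, limma adjusted p = 0.169). Against the pan-macrophage mean Clec7a stood at -0.57, -0.66 and -0.51 in MKO_PD1 and at -0.98, -0.76 and -0.91 in Cre_PD1, a difference of 0.31 (exact two-sided permutation p = 0.1). Clec4n differed from the same mean by -0.05 (exact two-sided permutation p = 0.9).

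Summed neutrophil levels were separate between groups, which was so for 1 of the 5 activating lectins. The 14 neutrophil markers, 13 of them tested and none at 0 in every library, summed to 525, 1366 and 606 TPM in MKO_PD1 and 172, 300 and 178 TPM in Cre_PD1. Against their mean, Clec4d differed by -0.48 (exact two-sided permutation p = 0.3) and Clec4e by -0.39 (exact two-sided permutation p = 0.4). Clec5a was lower relative to them in every MKO_PD1 library, at -2.10, -1.04 and -1.46, than in any Cre_PD1 library, at -0.16, -0.24 and 0.55 (difference -1.58, exact two-sided permutation p = 0.1). Recruited monocyte and macrophage markers, 10 of 10 tested, summed to 612, 1907 and 1245 TPM in MKO_PD1 and 2152, 1806 and 1843 TPM in Cre_PD1. That sum was led by Plac8, at 160, 758 and 437 TPM in MKO_PD1 and 1488, 1228 and 928 TPM in Cre_PD1. Over the 10 genes the median log2 difference was 0.63, against -0.42 over all genes. Of the 10, 3 were separate and higher, against 10.1% of all genes, and 1, Plac8, separate and lower, against 28.9%. Vcan and Fn1 were also below 0, at log2 differences of -1.22 and -0.07, with overlap. The part of either cell type in the levels of the activating lectins was not tested beyond these ratios. Groups did not overlap for 6 of the 20 ratios computed, with MKO_PD1 above Cre_PD1 in 4 and below it in 2, and the smallest p adjusted over the 20 was 0.333, all from the exact permutation test.

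**Figure D4:**
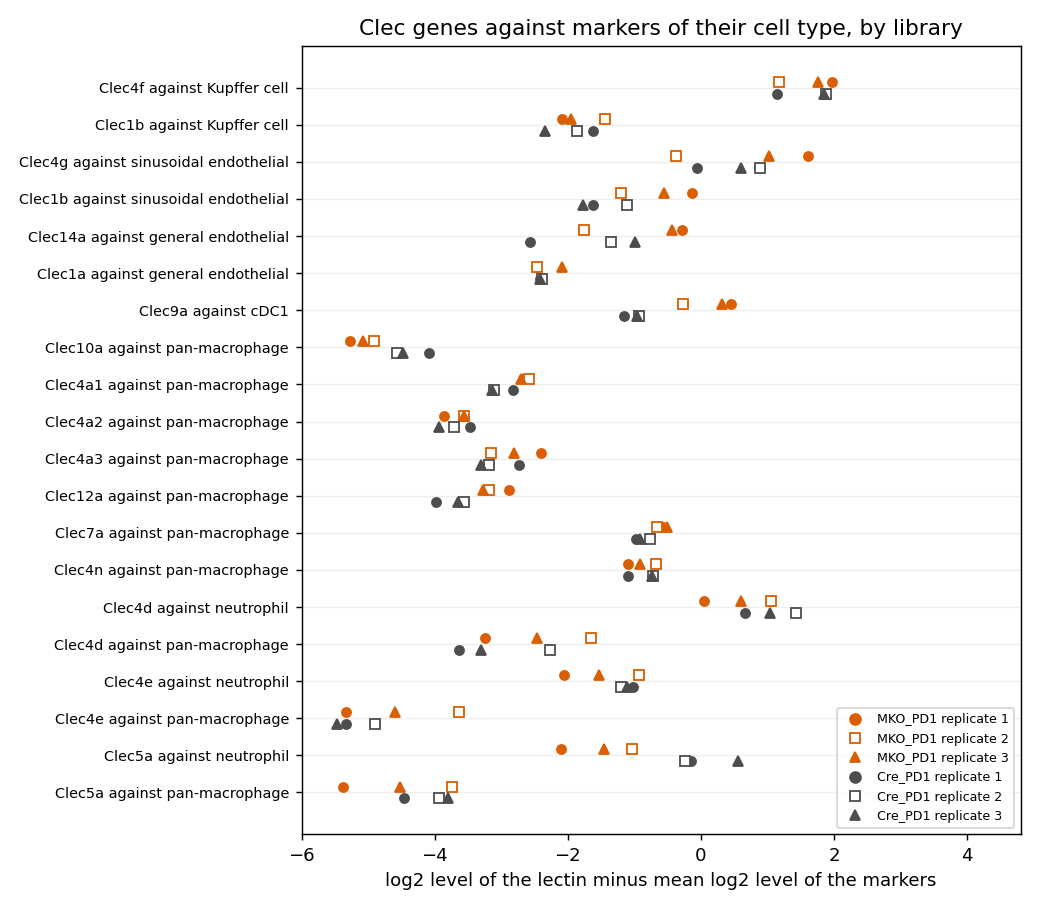
Log2 level of a lectin minus the mean log2 level of the markers of its cell type (horizontal axis), by library, for the 20 ratios computed. Clec9a against cDC1 markers and Clec5a against neutrophil markers separate the groups most, while Clec4f against Kupffer cell markers overlaps almost completely.

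Signalling partners of the activating lectins were split in direction. Of 21 adaptors, kinases and transcription factors, all tested, 11 had a log2 difference above 0, where 27.1% of all genes did. Limma called 0 of them, with 1 at an unadjusted p under 0.05, against 27.9% of all genes. The groups were separate and higher for 2 (Lyn and Lcp2), against 10.1% of all genes, and separate and lower for 2 (Src and Blnk), against 28.9%, and the median log2 difference was 0.25, against -0.42 over all genes. Src, a kinase that many cell types express, was at 14.7, 83.3 and 54.1 TPM in MKO_PD1 and at 122, 109 and 130 TPM in Cre_PD1 (log2 difference -1.53, SE 0.56, limma adjusted p = 0.168). Syk was at 12.3, 33.2 and 16.7 TPM in MKO_PD1 and 11.6, 11.6 and 13.1 TPM in Cre_PD1, and Fcer1g at 244, 554 and 277 TPM in MKO_PD1 and 214, 259 and 236 TPM in Cre_PD1. Both were highest in MKO_PD1 replicate 2 and overlapped between groups.

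The ligands of NKR-P1 receptors, by which tissue cells present themselves to natural killer cells, were separate and higher in MKO_PD1 in all 3 tested genes, against 10.1% of all genes. Only 3 of the 8 listed were tested, and of these Clec2h passed the filter mainly through MKO_PD1. Clec2d (ENSMUSG00000030157.5, chromosome 6, 129180615 to 129186534, plus strand), which encodes Clr-b, the ligand of an inhibitory NKR-P1 receptor, was at 214, 199 and 185 TPM in MKO_PD1 and at 96.5, 129 and 105 TPM in Cre_PD1. Clec2d was the most even of the abundant lectins, at 199 ± 14.6 TPM in MKO_PD1 and 110 ± 17.0 TPM in Cre_PD1 (SD, n = 3 each; log2 difference 0.86, SE 0.24, limma adjusted p = 0.168). It was the highest Clec gene in all 3 Cre_PD1 libraries. In MKO_PD1 replicate 2 it was level with Clec7a and Clec4n, and Clec4f was the highest in MKO_PD1 replicates 1 and 3. Clec2h, which encodes Clr-f, was at 6.90, 1.81 and 3.49 TPM in MKO_PD1 and at 0.109, 0.646 and 1.47 TPM in Cre_PD1, from 245, 49 and 100 reads against 3, 21 and 35 (log2 difference 1.49, SE 0.46, limma adjusted p = 0.168). Like Clec4f, it was highest in MKO_PD1 replicate 1. Clec2i, which encodes Clr-g, was at 2.28, 4.57 and 1.76 TPM in MKO_PD1 and at 1.55, 1.29 and 1.25 TPM in Cre_PD1 (log2 difference 0.65, SE 0.34, limma adjusted p = 0.215). The receptor gene Klrb1b was at 2.84, 12.0 and 4.07 TPM in MKO_PD1 and 5.96, 5.64 and 6.20 TPM in Cre_PD1 (log2 difference -0.13, limma adjusted p = 0.838), with overlap. Of 12 ligands and partner receptors 9 were tested, and limma called 0, with 0 at an unadjusted p under 0.05, against 27.9% of all genes. The median log2 difference was -0.13, against -0.42 over all genes. After Mmrn2, the smallest p were those of Trpm7, Hspg2 and Sap130. Their log2 differences were -0.575, -0.877 and -0.497, and their groups overlapped.

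The remaining tested members were the secreted Clec11a and the intracellular Clec16a, and both overlapped between groups. Clec11a, a secreted growth factor for bone and blood progenitors, was at 2.87, 5.91 and 2.10 TPM in MKO_PD1 and at 2.81, 5.93 and 5.36 TPM in Cre_PD1 (log2 difference -0.34, SE 0.41, limma adjusted p = 0.550), and its sign turned with median-of-ratios scaling (0.029). Clec16a, an intracellular protein of endosomes and mitophagy, was at 5.31, 7.58 and 6.55 TPM in MKO_PD1 and at 5.70, 5.23 and 7.28 TPM in Cre_PD1 (log2 difference 0.08, SE 0.29, limma adjusted p = 0.845).

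The 12 members that were not tested reached at most 1.08 TPM, in Clec3b, the gene of the plasma protein tetranectin. Clec3b had 14, 7 and 4 reads in MKO_PD1 and 6, 8 and 5 in Cre_PD1. Clec4a4 had 1, 7 and 5 reads against 2, 2 and 6, Clec4b2 2, 6 and 3 against 5, 1 and 1, and Clec12b 5, 9 and 3 against 3, 6 and 4, in each case MKO_PD1 against Cre_PD1. Clec2e had 4, 20 and 3 reads in MKO_PD1 and 2, 5 and 3 in Cre_PD1, and Clec2g 6, 16 and 4 in MKO_PD1 and 7, 6 and 0 in Cre_PD1. The pseudogenes Clec2f and Clec2j and the gene Clec18a had 2, 1 and 2 reads over all 6 libraries. Clec3a had 0 reads in every library, which allows a level of up to 0.387 to 0.579 TPM at 3 reads a library, by counting error alone. For Clec2l and Clec2m no reads were recovered, and their levels were at most 0.328 and 0.0631 TPM.

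Across the 22 tested genes the highest level was in MKO_PD1 replicate 2 for 13 genes, in MKO_PD1 replicate 1 for 7, in MKO_PD1 replicate 3 for Clec1a and in Cre_PD1 replicate 2 for Clec11a. The 7 highest in MKO_PD1 replicate 1 were Clec4f, Clec4g, Clec1b, Clec14a, Clec2d, Clec2h and Clec4b1. The lowest level was in Cre_PD1 replicate 1 for 14 genes. Lectins of resident liver cells and activating lectins of macrophages and neutrophils were thus highest in different MKO_PD1 tumours. Replicate 1 had the largest hepatocyte share and replicate 2 the largest macrophage and neutrophil sums, and the part of this tissue content in the lectin differences, beyond the ratios above, was not tested.

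**Figure D5:**
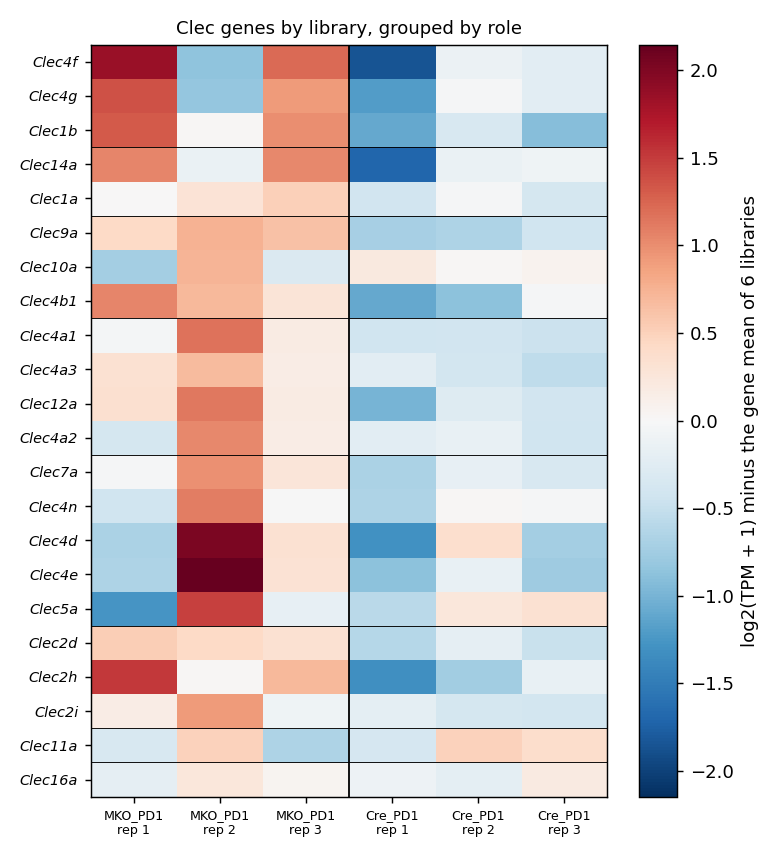
Log2(TPM + 1) of each tested Clec gene minus its mean over the 6 libraries (colour), with MKO_PD1 left and Cre_PD1 right of the vertical line and genes grouped by role. MKO_PD1 replicates 1 and 3 are high for Clec4f, Clec4g, Clec1b and Clec14a, and replicate 2 for Clec4d, Clec4e and Clec5a.

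By position, 25 of the 34 genes lie on chromosome 6. The stretch from Clec2j to Clec7a (128652416 to 129472779) holds 13 of them, and all 8 tested there had separate groups with MKO_PD1 higher, against 10.1% of all genes. In the stretch from Clec4a1 to Clec4e (122921848 to 123289870), with 9 members, 3 of 7 tested did. Clec2h in the first stretch and Clec4b1 in the second passed the filter mainly through MKO_PD1, which favours such a separation. The first stretch holds Clec2h, Clec2i, Clec2d, Clec12a, Clec1b, Clec9a, Clec1a and Clec7a, whose roles differ. Reads of near-identical neighbours in these families, such as the Clec2 and Clec4a genes, could be split or lost between copies. Clec2i overlaps the gene BC035044 and Clec4g the antisense gene Gm16553, and whether counting used strand is not given in the sources used here.

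Other C-type lectins of liver and myeloid cells include genes of hepatocytes. The list also holds Lgals3, the gene of galectin-3, which is a galectin and not a C-type lectin. Lgals3 (log2 difference -1.13, with overlap) is included in the counts and the median given here. Of 35 listed, 22 were tested and limma called 0, with 10 at an unadjusted p under 0.05, against 27.9% of all genes. Without MKO_PD1 replicate 2, limma called 20 of the 53 genes tested over the 4 pathway lists, against 45.9% of all genes in either direction. The groups were separate and higher in MKO_PD1 for 9 of 22, against 10.1% of all genes, none was separate and lower, against 28.9%, and the median log2 difference was 0.56, against -0.42 over all genes. Cd302, a lectin of hepatocytes and macrophages, was at 683, 245 and 511 TPM in MKO_PD1 and 64.6, 168 and 154 TPM in Cre_PD1 (log2 difference 1.88, SE 0.49, limma adjusted p = 0.168). Asgr1, the hepatocyte receptor for desialylated glycoproteins, was at 865, 274 and 541 TPM in MKO_PD1 and 86.1, 227 and 230 TPM in Cre_PD1, and Mbl1, a secreted mannose-binding lectin of hepatocytes, at 277, 99.2 and 205 TPM in MKO_PD1 and 29.3, 79.9 and 90.0 TPM in Cre_PD1. Within MKO_PD1 these lectins had the order of Clec4f, highest in replicate 1 and lowest in replicate 2, but unlike Clec4f they did not overlap between groups. Cd207, the gene of langerin, was at 7.16, 6.18 and 5.84 TPM in MKO_PD1 and 1.16, 2.46 and 2.699 TPM in Cre_PD1 (log2 difference 1.29, SE 0.32, limma adjusted p = 0.168), with even levels within MKO_PD1.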

How the data were processed

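RNA was measured in 6 bulk libraries, 3 MKO_PD1 and 3 Cre_PD1, grouped by their titles. Per the submitters' processing notes, STAR 2.7.10a, Subread, featureCounts 2.0.3 and mm10 were used. The deposited values are a read signal per exon length, not scaled by the authors to any common sum, although the file is named for TPM, as the test's plan assumed. Each library was rescaled to 1000000. Values times GENCODE M21 exon lengths gave whole reads (within 0.001) for 29374 of 29860 genes, including 31 of the 33 Clec genes above 0. No molecular identifiers are mentioned, and the floor given for 0 reads covers counting error only.

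Genes reaching 1 TPM in 3 or more libraries were tested on log2(TPM + 1) with limma 3.58.1 in R 4.3.3 (trend, no covariate), Benjamini-Hochberg adjusted over all 16506 genes. Fold changes on this scale understate those of low genes. Ratios to marker means used exact permutation over libraries. Every Clec gene was to be named, and up to 4 genes by p from each pathway list, with Lyn, Syk, Fcer1g, Pdpn, Klrb1b, Mgl2 and single markers added after values were seen. Members, role groups and lists were chosen with earlier results of these data known. The fit was tested on simulated data. Nothing states that the libraries come from separate litters or days, and p-values measure the spread between these samples. Promoter windows are from RefSeq (GRCm38.p6). Alternatives changed the pseudocount (0.1), filter, scaling, fit, block and libraries.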

Additional observations from a re-analysis of the deposited data

How the results depend on the processing

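No Clec gene was called with a pseudocount of 0.1, without a filter, with 5 TPM, with median-of-ratios scaling, with the values as deposited, with limma voom or without MKO_PD1 replicates 1 and 3. With the replicate block 0 of 22 were called. Deviations of same-numbered libraries from their group means correlated at -0.42, -0.265 and 0.0488. Such deviations sum to 0 within a group of 3, so these correlations cannot tell whether same-numbered libraries were paired. Leaving out 1 library at a time called 0 to 8 higher and 0 lower, left 11 to 14 separate and higher and 0 to 1 separate and lower, and called 0 to 20 of the pathway genes. Of the ratios, 4 to 7 were separate and higher and 2 to 5 separate and lower. The 8 calls, the 20 calls and the ratio counts of 7 and 5 came without MKO_PD1 replicate 2, and the cause was not tested. The 5 TPM filter left 7 separate and higher among 17 genes tested, and median-of-ratios scaling 15 of 22, against 18.6% of all genes.

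Signs turned for Clec5a (-0.04 with a pseudocount of 0.1; -0.72 to 0.65 leaving out 1 library), Clec10a (0.17 with median-of-ratios scaling, 0.25 with voom; -0.63 to 0.10) and Clec11a (0.029 and 0.064 in the same fits; -0.67 to -0.09). Clec16a ranged from -0.024 to 0.20 leaving out 1 library. Without MKO_PD1 replicates 1 and 3, where the lone MKO_PD1 library is assumed to vary like the others, Clec4f was at -0.14, Clec4g at -0.35, Clec10a at 0.62 and Clec11a at 0.33. The other 16 tested genes kept a positive sign in every fit that tested them. The Clec4f ratio to Kupffer cell markers was -0.065 with a pseudocount of 0.1 and -0.23 to 0.24 leaving out 1 library. Ranges of the other ratios that changed sign were -0.087 to 0.28 for Clec1b against Kupffer cell markers, -0.15 to 0.84 for Clec4g against sinusoidal markers, -0.061 to 0.13 for Clec1a against endothelial markers, and -0.069 to 0.17 for Clec4a2 and -0.17 to 0.051 for Clec4n against pan-macrophage markers. None of the 12 genes not tested held 50 reads over the 6 libraries where reads were recovered, and low depth and low expression cannot be told apart there.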
